A study of Mus musculus with 8 samples.

Results

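The deposited table lists 2957 long intergenic noncoding RNAs (lincRNAs) among 39527 genes, and 22 of them are described here. They were chosen by their level: a lincRNA by the table's gene type, with a value of at least 1 FPKM in all 8 libraries, other than Neat1, Malat1 and Haglr. FPKM sets the fragments of a gene against its length and the size of the library. None of the 3 genes left out by name met the level rule as deposited, because Neat1 and Malat1 are listed below 0 in the table and Haglr was under 1 FPKM in N1. Since the level chose the members, their levels are given as a description with no test. The rule made no use of the difference between the diets.

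ILC2s, or group 2 innate lymphoid cells, live in tissues, lack antigen receptors and secrete type 2 cytokines. They were sorted from the epididymal visceral fat of wild-type male C57BL/6 mice 14 weeks old. The normal-diet group (libraries N1 to N4) and the high-fat group (H1 to H4) had 4 libraries each, and the diets had been fed for 8 weeks from 6 weeks of age. All mice were wild-type, and no label says whether a library is 1 mouse or a pool. The p-values below therefore rest on the variation from library to library, part or all of which may be technical.

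LincRNAs are RNA polymerase II transcripts from outside protein-coding genes, most of them spliced, capped and polyadenylated, without a long open reading frame. Many arise from the divergent side of a coding gene's promoter, and many are kept low by rapid turnover in the nucleus. Only some have a known role: a few act on chromatin near their own locus, some carry microRNAs or small nucleolar RNAs in their introns or exons, and some have turned out to encode short proteins. In lymphocytes their levels are known to be more specific to a cell state than those of coding genes.

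RefSeq promoter windows show the kinds of start site the 22 genes have. The RefSeq table (assembly GRCm38.p6) holds a window of 300 bases, 250 before and 50 after the start, for 16 of the 22 genes. The windows of the 2 most expressed members come first, with the first 50 transcribed bases in capitals. AW112010 lies at chr19:11050517-11050816 on the minus strand, and its window holds 1 CpG. 5031425E22Rik lies at chr5:23433287-23433586 on the minus strand and holds 24.
AW112010: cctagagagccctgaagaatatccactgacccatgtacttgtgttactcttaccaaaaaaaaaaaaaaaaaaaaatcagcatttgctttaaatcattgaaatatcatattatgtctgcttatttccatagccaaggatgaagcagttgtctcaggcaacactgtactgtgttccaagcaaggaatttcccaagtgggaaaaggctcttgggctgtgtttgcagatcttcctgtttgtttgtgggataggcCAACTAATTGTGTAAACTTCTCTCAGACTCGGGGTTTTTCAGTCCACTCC
5031425E22Rik: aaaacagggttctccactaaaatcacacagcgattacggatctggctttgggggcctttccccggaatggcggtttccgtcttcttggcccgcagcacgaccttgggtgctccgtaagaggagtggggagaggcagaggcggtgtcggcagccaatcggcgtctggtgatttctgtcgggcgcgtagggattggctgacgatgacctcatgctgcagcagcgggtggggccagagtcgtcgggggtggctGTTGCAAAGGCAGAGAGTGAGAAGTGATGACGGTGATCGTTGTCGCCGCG

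Another pair of windows belongs to genes that start head to head with a coding gene, so that a single window holds both starts. The capitals mark the bases between the 2 starts, 107 for Gm10101 and Cgrrf1 by its RefSeq start (98 by its GENCODE start, chr14:46831884-46832183, plus strand) and 173 for Gm10655 and Tle3 (chr9:61372116-61372415, plus strand). Both windows are written on the strand of the coding gene.
Gm10101 and Cgrrf1: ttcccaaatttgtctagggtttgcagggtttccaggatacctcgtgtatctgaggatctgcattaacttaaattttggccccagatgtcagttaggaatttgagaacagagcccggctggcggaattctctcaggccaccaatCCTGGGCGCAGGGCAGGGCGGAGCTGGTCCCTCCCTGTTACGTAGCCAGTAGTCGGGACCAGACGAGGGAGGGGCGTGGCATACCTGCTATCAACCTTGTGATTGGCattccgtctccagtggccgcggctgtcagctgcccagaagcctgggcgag
Gm10655 and Tle3: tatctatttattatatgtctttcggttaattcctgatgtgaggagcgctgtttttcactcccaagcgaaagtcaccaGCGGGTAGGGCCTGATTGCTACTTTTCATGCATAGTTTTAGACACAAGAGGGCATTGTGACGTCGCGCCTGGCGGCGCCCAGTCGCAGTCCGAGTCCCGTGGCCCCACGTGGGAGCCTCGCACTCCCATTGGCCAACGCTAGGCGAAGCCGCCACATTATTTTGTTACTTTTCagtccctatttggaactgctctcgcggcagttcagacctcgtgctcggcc

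The last pair shows a duplicated promoter. BC002059 (chr17:16951286-16951585, plus strand) and Gm6712 (chr17:17294193-17294492, plus strand) aligned over 271 bases with 94.5% identity. The capitals mark their longest identical run, of 57 bases.
BC002059: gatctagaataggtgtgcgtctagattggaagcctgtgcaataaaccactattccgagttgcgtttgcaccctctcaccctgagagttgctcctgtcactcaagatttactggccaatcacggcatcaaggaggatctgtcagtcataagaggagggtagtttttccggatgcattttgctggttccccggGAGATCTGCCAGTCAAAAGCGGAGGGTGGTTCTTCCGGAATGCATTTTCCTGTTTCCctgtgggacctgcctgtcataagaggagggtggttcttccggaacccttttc
Gm6712: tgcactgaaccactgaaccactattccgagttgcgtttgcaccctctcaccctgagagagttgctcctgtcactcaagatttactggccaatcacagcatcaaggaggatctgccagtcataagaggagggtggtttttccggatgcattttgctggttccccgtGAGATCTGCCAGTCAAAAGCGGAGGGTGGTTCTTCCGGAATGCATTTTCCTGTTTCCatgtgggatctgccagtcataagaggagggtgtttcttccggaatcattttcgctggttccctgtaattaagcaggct

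As a set, the 16 windows had a median of 8.5 CpGs, against 7 in all 32851 windows of the table. At most 1 CpG was found in 5 of the 16 (31.2%), those of AW112010, 4930562F07Rik, A630023P12Rik, C030034I22Rik and Gm14010, against 14.1% of all windows. The letters CCAAT, searched on both strands, were present in 6 of 16 (37.5%), against 37.4% of all windows. These are counts of letters in fixed windows, and the RefSeq start lay 5242 bases from the GENCODE start for AW112010, 2014 for Lncpint, 955 for C030034I22Rik, 933 for 5031425E22Rik and 887 for Gm14010. Of the 5 windows with at most 1 CpG, 3 therefore lie away from the GENCODE start.

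The 8 libraries held 9005363 (H2) to 15752815 (H4) reads, recovered from the deposited values as described under the processing. H2 stood apart: it had the fewest reads, the most genes at 1 FPKM or more (13663, against 10763 to 11905 in the others) and the lowest correlations with libraries of its own diet (0.957 to 0.970). The members took 3105 (H2) to 5826 (H1) reads per library, or 5.83% to 9.48% of all reads on lincRNAs. Of all reads they took 0.0279% to 0.0340% in the normal-diet and 0.0345% to 0.0404% in the high-fat libraries, ranges that did not overlap, with AW112010 the largest contributor. These shares are not corrected for library composition, and no such share was taken for other sets of genes. With recovered reads scaled by the median ratio over genes (limma-voom), AW112010 differed by 0.04 on the log2 scale. The members' median difference was 0.13 there, and 0 of 21 passed. Of 15 ILC2 markers 15 were tested and 3 fell on the high-fat diet (Il5, Il2ra and Gata3), with summed FPKM of 8946 to 10793 on the normal and 7223 to 8170 on the high-fat diet. Of the markers of other cell types, 3 of 6 tested endothelial markers rose (Fabp4, Esam and Calcrl; summed FPKM 20.2 to 28.7 against 36.6 to 167), and 1 of 5 macrophage markers rose (Ctss) and 1 fell (Cd9). No tested T cell (12), B cell (4), mast cell (10) or stromal and adipocyte (3) marker passed, although mast cell markers summed to 4365 to 9029 and 2063 to 8613 FPKM, and no marker of these lists was at 0 in all libraries. The T cell markers had a median difference of 0.58. In reads recovered from the values and tested with limma-voom, 2 of 14 T cell markers (Cd28 and Trat1), 1 of 5 B cell markers (Ebf1) and 6 of 12 endothelial markers rose, and 5 of 15 ILC2 markers fell. The B cell markers as a list had a median difference of -0.05 in that fit. The part of these cell types in the members' values was not tested.

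The member with the highest level was AW112010, at 248, 223, 230 and 240 FPKM in N1 to N4 and 293, 181, 208 and 302 in H1 to H4. AW112010 is an interferon-responsive transcript of immune cells, first annotated as noncoding and later found to be translated. It lies on chromosome 19 at 11047612 to 11055808 (minus strand, mm10, GENCODE M21) and was above 96.5% of all tested genes. The normal-diet libraries lay close together, and the high-fat libraries lay on both sides of them. Its means were 235 ± 11.0 (SD, n = 4) and 246 ± 60.3 FPKM (SD, n = 4), and it held 39.4% of all reads on the members.

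5031425E22Rik followed, at 110, 159, 129 and 92.7 FPKM in N1 to N4 and 135, 98.9, 113 and 120 in H1 to H4. It starts 172 bases from Kmt2e, a chromatin regulator, on the opposite strand of chromosome 5 (23382308 to 23434269). The highest and the lowest of its values were both in normal-diet libraries, and the diets overlapped. Lncpint, a target of p53, had 39.3, 33.8, 45.6 and 37.0 FPKM in N1 to N4 and 50.1, 35.6, 42.2 and 33.8 in H1 to H4. Lncpint lies on chromosome 6 at 31082565 to 31220488, minus strand, and its diets overlapped along almost their whole range.

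Of the next members, 1810058I24Rik encodes a small mitochondrial protein (Stmp1 or Mm47), and RefSeq lists it as coding although the table types it as a lincRNA. It had 19.3, 24.9, 25.7 and 22.4 FPKM in N1 to N4 and 32.0, 18.5, 23.5 and 20.7 in H1 to H4. Its highest and lowest values were both in the high-fat group. 5033430I15Rik, which starts 245 bases from Atxn1, a transcriptional regulator, had 14.6, 23.4, 22.1 and 13.5 FPKM in N1 to N4 and 19.9, 16.1, 20.6 and 20.1 in H1 to H4. Dubr, a lincRNA described in myogenic differentiation, had 8.67, 11.9, 18.8 and 11.6 FPKM in N1 to N4 and 15.2, 12.9, 15.6 and 18.4 in H1 to H4. N3 was the highest library for Dubr and N1 the lowest, so the normal-diet range enclosed the high-fat one.

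**Figure D1:**
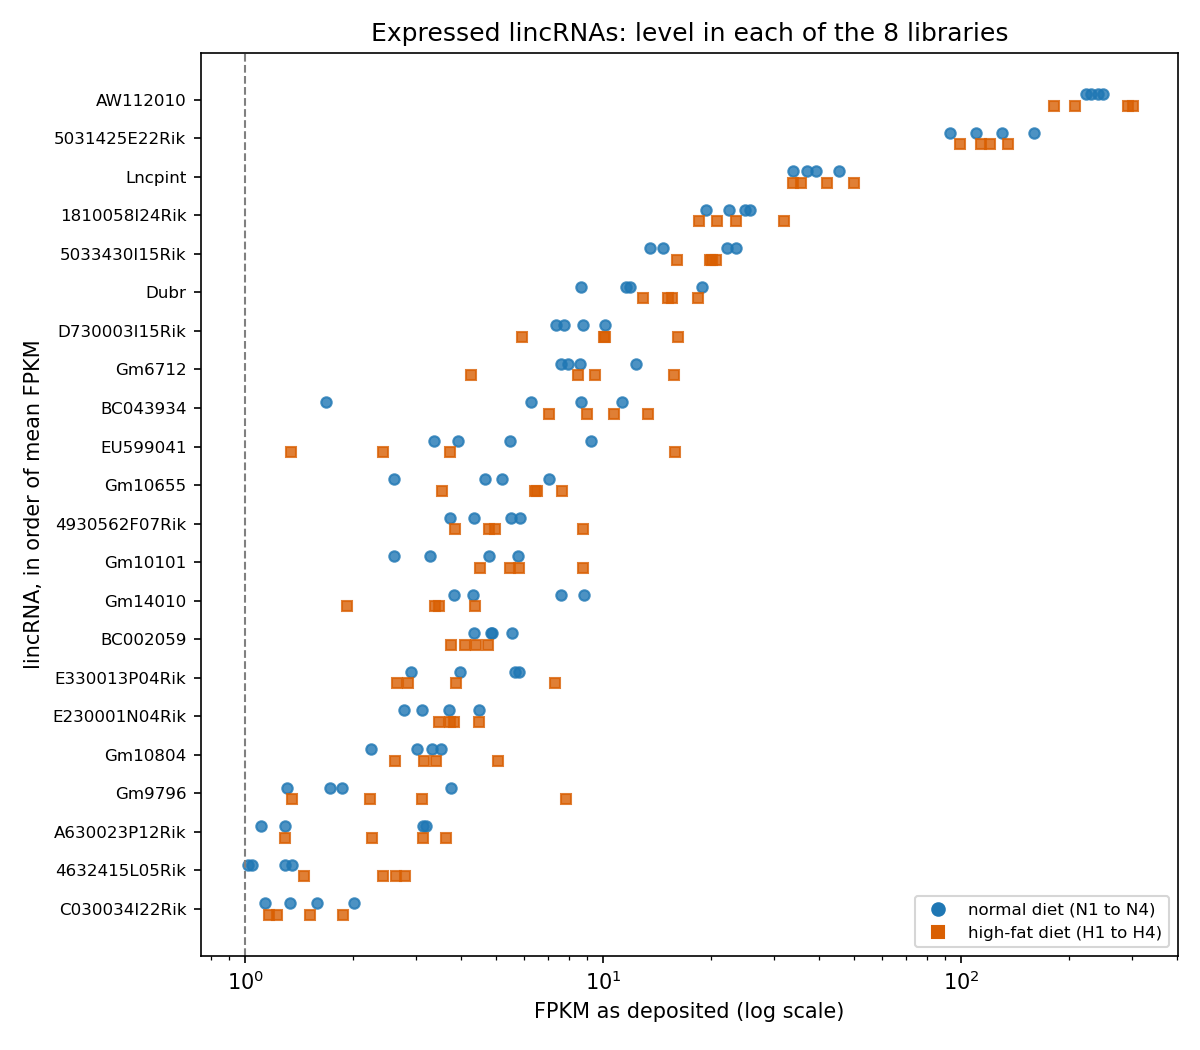
FPKM (horizontal, log scale) of the 22 lincRNAs in each library, circles for the normal diet and squares for the high-fat diet, with a dashed line at the rule's 1 FPKM. AW112010 sits at 181 to 302 FPKM, most members lie under 10 FPKM, and the circles and squares overlap for every member except 4632415L05Rik.

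These 6 members were the ones with a mean of at least 10 FPKM, and 9 of the 22 had a mean under 5. In the order of mean level, AW112010, 5031425E22Rik and Lncpint each stayed clear of the next in the range over 8 libraries. From 1810058I24Rik downward every member overlapped the next, so the order there is not separated beyond the spread. The 3 members nearest the rule's limit were 4632415L05Rik with a lowest value of 1.02 FPKM, A630023P12Rik with 1.10 and C030034I22Rik with 1.13. The 3 lincRNAs that missed it by least were Gm5544 with a lowest value of 0.965, 4933413J09Rik with 0.961 and Gm10505 with 0.850.

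Within a diet the members' median coefficient of variation (SD over mean) was 24.5% on the normal and 27.8% on the high-fat diet, against 19.6% and 19.2% over all tested genes. It was higher in tested lincRNAs that are not members (60.2% and 67.0%) and in antisense genes (36.0% and 35.2%), while in processed transcripts it was higher on the normal diet (31.3%) and lower on the high-fat diet. BC002059 was the most even member of the lower ranks, at 4.35, 4.86, 4.89 and 5.55 FPKM in N1 to N4 and 4.75, 3.74, 4.10 and 4.41 in H1 to H4. EU599041 was the least even, at 5.50, 9.22, 3.93 and 3.37 in N1 to N4 and 2.42, 15.8, 3.72 and 1.34 in H1 to H4. For EU599041, H2 was above every other library and the other high-fat values overlapped the normal range or lay under it. H2 was the highest library for 6 members (BC043934, EU599041, E330013P04Rik, E230001N04Rik, Gm9796 and 4632415L05Rik) and the lowest for 6 others, among them AW112010, 1810058I24Rik and D730003I15Rik.

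No member passed the test for a difference between the diets (limma on log2(FPKM + 1), Benjamini-Hochberg adjustment over 11483 tested genes, threshold 0.05). The count was 0 of 22, beside 2.86% of all tested genes, of which 112 (0.975%) rose and 216 (1.88%) fell. At an unadjusted p under 0.05 there were 3 members (13.6%), against 18.1% of all tested genes, and the smallest adjusted p was 0.148. In 1 of 22 members (4.55%) the diets did not overlap in FPKM, against 11.1% of all tested genes. By the fitted log2 difference 15 members (68.2%) were higher and 7 lower on the high-fat diet, against 47.9% higher of all tested genes. Of the 9621 tested genes at 1 FPKM or more in all libraries, as the members are, 44.4% were higher and 3.07% passed. For 11 members the sign changed in at least 1 other setting. The share higher was 83.3% in tested lincRNAs that are not members, 68.1% in processed transcripts and 58.3% in antisense genes. Unlike the members, genes of these groups could be under 1 FPKM in some libraries, so their shares are not a like comparison. The part of that filter in the shares was not tested. In the recovered reads (limma-voom), 21 other lincRNAs above 0 had a median log2 difference of 0.0028, against 0.13 for the members. In the main fit the members' median log2 difference was 0.10 against -0.02 over all tested genes. EU599041 and Gm6712, lower in the fit, were higher on the high-fat diet in mean FPKM. A different level in bulk RNA could reflect fewer cells of a type or less RNA per cell, which cannot be told apart here.

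The intervals set the size of change that these data could still hold. For 17 of the 22 members the 95% interval of the difference lay inside a 2-fold change in either direction, on the log2(FPKM + 1) scale. The added 1 makes a given change look smaller in low genes. With a pseudocount of 0.1 this held for 15. The median distance from the estimate to the end of its interval was 0.46 on the log2 scale. The most expressed members had differences near 0: 0.03 for AW112010 (95% interval -0.34 to 0.40), -0.05 for 5031425E22Rik (-0.43 to 0.32), 0.05 for Lncpint (-0.30 to 0.39) and 0.01 for 1810058I24Rik (-0.36 to 0.39).

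**Figure D2:**
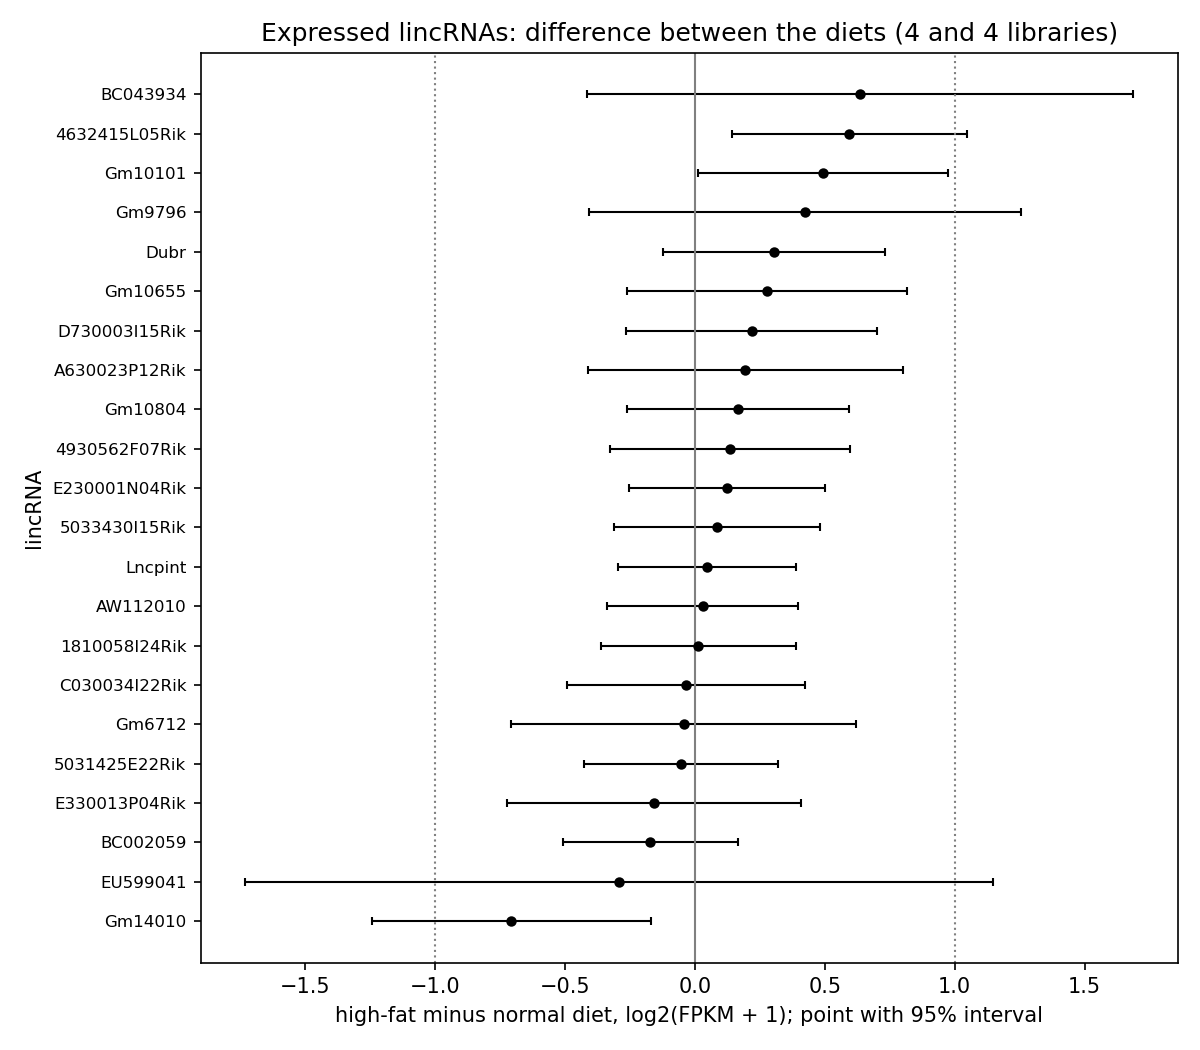
Difference between the diets for each lincRNA (high-fat minus normal, log2(FPKM + 1)), as the fitted value with its 95% interval, with dotted lines at a 2-fold change. The values run from -0.71 (Gm14010) to 0.63 (BC043934), and 3 of the 22 intervals leave out 0.

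4632415L05Rik was the member whose diets did not overlap. RefSeq lists it as a transcribed pseudogene, on chromosome 3 at 19894886 to 19898984. It had 1.29, 1.02, 1.04 and 1.35 FPKM in N1 to N4 and 2.42, 2.78, 1.46 and 2.63 in H1 to H4. Each high-fat library was above every normal-diet library, with H3 the closest to them. The difference was 0.59 (SE 0.21, 95% interval 0.14 to 1.05) with an adjusted p of 0.148 in limma, and over 19 other settings the adjusted p ranged from 0.0536 to 0.287. With the factor that repeats every 10 rows of the deposited values divided out, its difference was 0.54 (adjusted p of 0.132 in limma). Its reads are few, 28 to 81 per library, and 506 bases of its transcript match Gm16505 at 95.1% identity, so the counting could have split or shared reads between them.

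Gm14010 had the lowest difference, from 8.84, 7.62, 4.33 and 3.82 FPKM in N1 to N4 to 3.39, 1.92, 4.36 and 3.47 in H1 to H4. N1 and N2 were high, and N3 and N4 lay within or near the high-fat range. The difference was -0.71 (SE 0.25, 95% interval -1.24 to -0.17), with an adjusted p of 0.148 in limma. It lies on chromosome 2 at 128423654 to 128424565 and rested on 7 to 37 reads per library. Without both libraries numbered 2 its value was -0.42, with an adjusted p of 0.382 in limma.

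Gm10101 had 5.76, 2.61, 3.28 and 4.80 FPKM in N1 to N4 and 8.78, 5.47, 5.79 and 4.52 in H1 to H4. H2 and H4 lay inside the normal-diet range, H1 lay above it, and H3 (5.79) was barely above N1 (5.76). The difference was 0.49, with an adjusted p of 0.265 in limma. BC043934 differed by 0.63, with an adjusted p of 0.524 in limma, from 8.68, 6.27, 1.68 and 11.3 FPKM in N1 to N4 and 7.03, 13.3, 10.7 and 9.00 in H1 to H4. N3 was far under the other libraries, and H2 was the library above all normal-diet values. Without N3 the difference of BC043934 was 0.18.

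The remaining members overlapped between the diets as well. D730003I15Rik, on chromosome 1 near Atf3, ranged from 7.37 to 10.1 FPKM on the normal and from 5.91 to 16.1 on the high-fat diet. Gm6712 ranged from 7.61 to 12.4 and from 4.28 to 15.7 FPKM, with 8 to 35 reads per library. In both, the high-fat range enclosed the normal-diet range, with H2 the lowest library. Gm10655 ranged from 2.59 to 7.04 and from 3.55 to 7.64 FPKM, and 4930562F07Rik from 3.73 to 5.85 and from 3.86 to 8.79. E330013P04Rik, 35995 bases tail to tail from Fam204a on chromosome 19, ranged from 2.91 to 5.80 and from 2.65 to 7.31 FPKM, with H2 the highest library. The other high-fat values of E330013P04Rik lay between 2.65 and 3.87 FPKM, in the lower part of the normal range or under it.

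E230001N04Rik was among the more even members, from 2.77 to 4.50 FPKM on the normal and from 3.47 to 4.50 on the high-fat diet. Gm10804 ranged from 2.24 to 3.52 and from 2.62 to 5.09 FPKM. A630023P12Rik took values near 1 and near 3 in both groups: 1.10 and 1.29 in N2 and N3, 3.13 and 3.19 in N1 and N4, 1.29 in H2 and 2.26 to 3.63 in the other high-fat libraries. C030034I22Rik, the member with the lowest mean, had 1.13, 1.58 and 1.33 FPKM in N1, N2 and N4, its highest value in N3, and 1.17 to 1.88 in the high-fat libraries.

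In the fit, Dubr differed by 0.31 (95% interval -0.12 to 0.73), Gm10655 by 0.28 and D730003I15Rik by 0.22. Gm9796, with 7.84 FPKM in H2 and 1.35 to 3.11 in the other high-fat libraries, differed by 0.42 (95% interval -0.41 to 1.25), but by 0.05 without H2 and -0.08 without both libraries numbered 2. Gm10804 and E230001N04Rik differed by 0.17 and 0.12, 4930562F07Rik by 0.13 and A630023P12Rik by 0.19. BC002059 differed by -0.17, E330013P04Rik by -0.16, EU599041 by -0.29, Gm6712 by -0.04, C030034I22Rik by -0.04 and 5033430I15Rik by 0.09. Single libraries set much of these values. EU599041 differed by -0.87 without H2 and 0.08 without H4, and E330013P04Rik by -0.41 without H2 and -0.02 without H1. D730003I15Rik differed by 0.44 without H2 and 0.0044 without H1. Gm10655 differed by 0.06 without N4, and Dubr by 0.15 without N1 and 0.50 without N3. In the main fit the lowest adjusted p among these members was 0.456 in limma, for Dubr. Over the other settings the lowest was 0.129 in limma, for EU599041 without H2.

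Several members sit beside a coding gene, and 4 start head to head with it within 1000 bases. The library kit does not mark strand, so reads from overlapping transcripts of both strands count alike. The nearest coding gene of 11 members was tested, and none of the 11 passed in limma (3 at an unadjusted p under 0.05). Tle3, a corepressor of transcription that starts 173 bases from Gm10655, had 17.6, 15.1, 11.4 and 14.2 FPKM in N1 to N4 and 13.4, 7.86, 11.1 and 8.55 in H1 to H4. Tle3 was lower by value on the high-fat diet (-0.48, adjusted p of 0.177 in limma) while Gm10655 was higher by value (0.28, adjusted p of 0.611). Cgrrf1, which encodes a RING-finger protein and starts 98 bases from Gm10101, differed by -0.18, against 0.49 for Gm10101. Neither gene of these pairs passed, and the difference within a pair was not tested.

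Kmt2e differed by -0.05 and its partner 5031425E22Rik by -0.05. Both had their highest value in N2, but the lowest was in H2 for Kmt2e (31.9 FPKM) and in N4 for 5031425E22Rik (92.7). Atxn1 differed by 0.24 and 5033430I15Rik by 0.09. Farther away, Fkbp5, a glucocorticoid-induced co-chaperone 5193 bases from E230001N04Rik, had 3.19 to 5.69 FPKM on the normal and 5.59 to 7.10 on the high-fat diet (0.43, adjusted p of 0.208 in limma). Atf3, a stress-induced transcription factor 6415 bases from D730003I15Rik, had 131 to 367 and 268 to 356 FPKM. Cd82, a tetraspanin that overlaps Gm10804 on the opposite strand without shared exon bases, had 1586 to 2597 and 1244 to 1466 FPKM. Its diets did not overlap, and the difference of -0.43 did not pass (adjusted p of 0.189 in limma), while Gm10804 differed by 0.17.

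The copy number and type of several members bear on what their values count. Gm6712 matches the lincRNA Gm5165 over 522 bases at 95.4% identity, EU599041 matches the zinc-finger gene Zfp936 over 500 bases at 96.8%, BC002059 matches Zfp97 over 122 bases and Dubr shares 208 bases with Vmn2r1. 4930562F07Rik shares 601 of its 897 exon bases with 4930523C07Rik on the other strand, a gene listed below 0 that held 437 to 587 RPM (recovered reads scaled to library size). On exon bases, C030034I22Rik shares 733 with A930029G22Rik, E230001N04Rik 332 with Gm20109, Lncpint 138 with 2210408F21Rik and Dubr 114 with Mir6363. The values of these members are therefore uncertain, to differing degrees. The match covers 99.2% of the transcript for Gm6712, but 6.21% for BC002059 and 7.18% for Dubr. The shared exon bases are 138 of 7378 for Lncpint and 114 of 4679 for Dubr. How reads on shared bases were assigned was not tested. By GENCODE M21, 21 of the 22 are lincRNAs and Gm10101 is a transcript from a bidirectional promoter. RefSeq lists 14 as long noncoding RNAs, 3 as protein coding (Gm6712, 1810058I24Rik and EU599041), 1 as a transcribed pseudogene, and has no entry for Gm9796, BC043934, Gm10101 and Gm10655.

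The level rule also rests on the gene length used for FPKM. The length implied by the deposited values was shorter than the annotated exons of GENCODE M21 for all members but Gm14010, with a median ratio of 0.366 (0.0906 to 1.01), and for 15 of 22 it was under 0.5. Among the 13 members with over 20 reads in every library the median ratio was 0.421, against 0.607 in 9787 protein-coding genes with as many. The shortest for its exons was 5031425E22Rik, with 466 bases against 5142. The annotated length merges the exons of all transcripts of a gene (16 transcripts for Lncpint), so it can exceed the length of any single transcript. The annotation behind the deposited values is not given. A shorter length raises FPKM in every library alike. The difference between the diets was not fitted on rescaled values, and with the added 1 its size depends on the level: at a pseudocount of 0.1, 4632415L05Rik differed by 0.90 and Gm9796 by 0.54.

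Rescaled to this merged exon length, 14 of the 22 members stayed at 1 FPKM or more in all libraries. The rescaled levels depend on that choice of length, and single transcripts were not tried. The 8 that did not were BC043934, EU599041, Gm10655, Gm10101, Gm9796, A630023P12Rik, 4632415L05Rik and C030034I22Rik. AW112010 stayed first, at 189 ± 31.9 FPKM (SD over 8 libraries). 5033430I15Rik came next at 14.3 ± 2.74, and 5031425E22Rik went from 120 to 10.9 ± 1.94 in mean level, beside Lncpint at 10.8 and 1810058I24Rik at 10.4. Dubr went from rank 6 to rank 13.

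**Figure D3:**
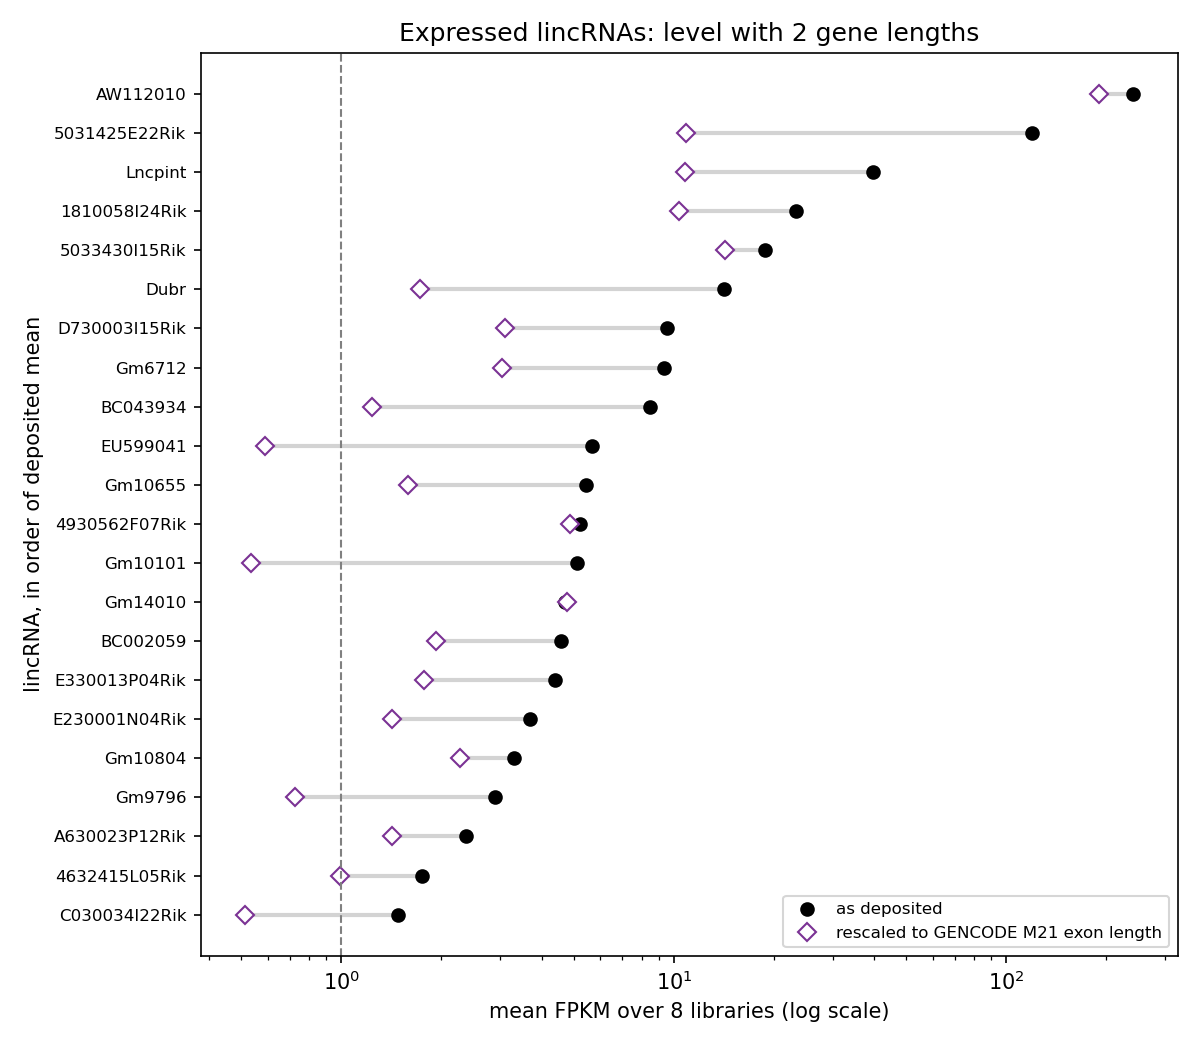
Mean FPKM over the 8 libraries (log scale) of each lincRNA as deposited (filled circles) and rescaled to the exon length of GENCODE M21 (open diamonds), with a dashed line at 1 FPKM. AW112010 keeps its place at 189, while 5031425E22Rik moves from 120 to 10.9 and 5 members have a rescaled mean under 1.

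The 22 members are a part of the lincRNAs these cells hold. Of the lincRNAs, 2661 (90.0%) are listed below 0, 81 are at 0 and 215 are above 0, against 7.16% of protein-coding genes below 0. The lincRNAs above 0 all have an Ensembl identifier number of 79604 or lower, and none of the 2741 with a higher number is above 0. Of the 215, 193 were under 1 FPKM in at least 1 library. Of 24 tested lincRNAs that are not members, 1 passed in limma: Haglr, a lincRNA of the Hoxd cluster, with 1.96, named here after its value was seen.

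Whole reads recovered from the values below 0 let the members be set beside these other lincRNAs, with limma-voom, a choice made after the data were seen. In that fit 5.37% of 14161 genes passed, and of the members 0 of 21 passed (EU599041 had too few reads). At an unadjusted p under 0.05 there was 1 member (4.76%), against 20.3% of all genes in that fit. Of 294 lincRNAs listed below 0, 12 passed (4.08%), 3 higher and 9 lower on the high-fat diet. Mir142hg, the host of a microRNA of blood cells, rose by 0.95 (adjusted p of 0.00862 in limma-voom), from 9.82 to 21.8 RPM on the normal to 28.7 to 41.6 on the high-fat diet. Gm19585 fell by 1.12 (adjusted p of 0.00263), from 30.5 to 43.4 RPM down to 13.8 to 19.8. In both the diets did not overlap, which adds no separate support, since both were named because they passed.

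**Figure D4:**
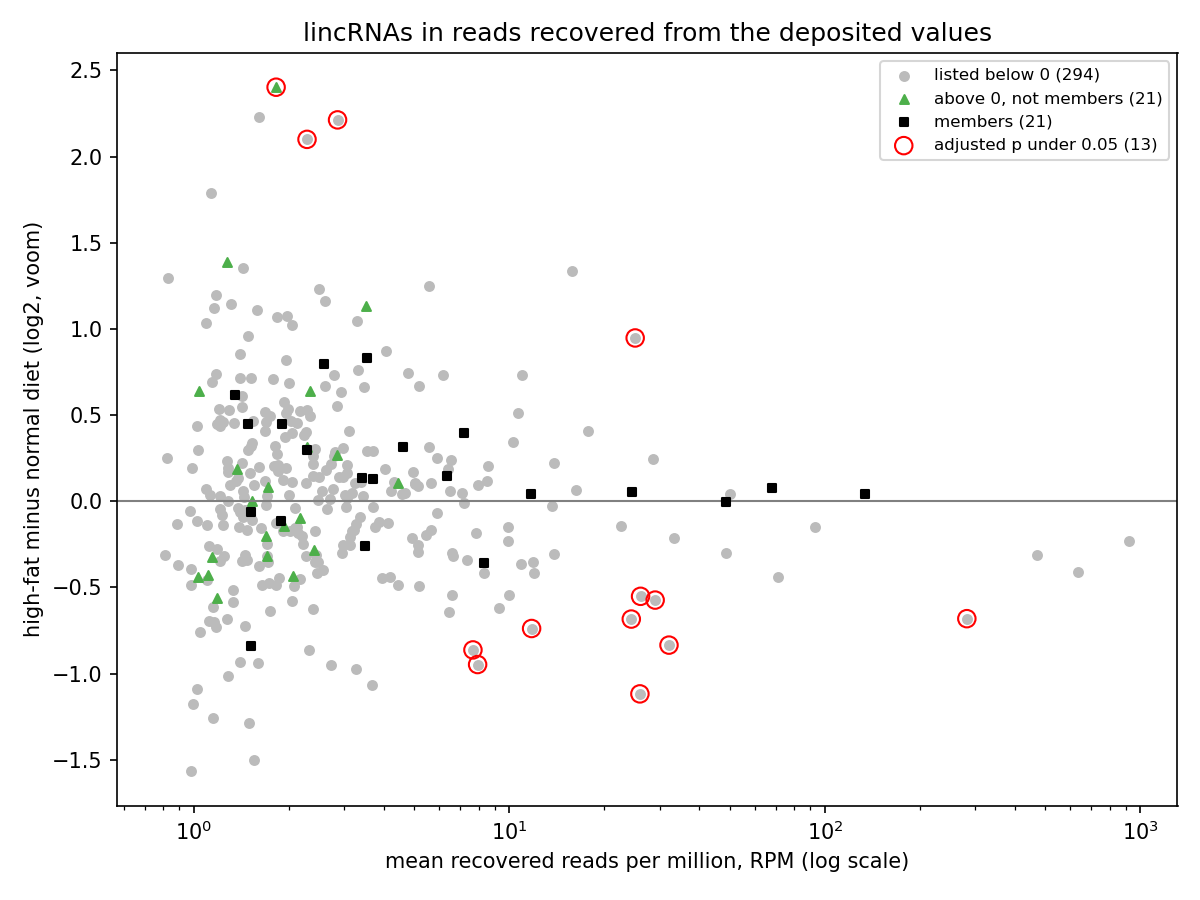
lincRNAs in the recovered reads: mean RPM (horizontal, log scale) and high-fat minus normal difference (log2, voom), for 21 members (squares), 21 other lincRNAs above 0 (triangles) and 294 listed below 0 (circles). Red rings mark the 13 with an adjusted p under 0.05, none of them a member.

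Known noncoding hosts and the machinery that makes or removes such RNAs were read from lists chosen with earlier results of these data known. Of the hosts of small nucleolar RNAs, 16 were in the table, with 14 listed below 0 and 1 tested, Gas5 (0.14, adjusted p of 0.678 in limma). The list of microRNA hosts held 16 genes in the table, of which 14 are below 0 and 2 were tested, with 0 called. Not all of them are hosts: Mir5136 is typed as a microRNA itself. Whether Mirt1 and Mirt2 carry a microRNA was not checked. The list counts the member Lncpint, although GENCODE M21 places no small RNA inside it, and does not hold Dubr, the member that shares exon bases with a microRNA gene (Mir6363). The list of characterised lincRNAs held 43 genes in the table, 33 of them below 0, and not all are lincRNAs by the table's type. Of its genes 6 were tested, with 0 called. The members AW112010 and Dubr, and Meg3, are typed as lincRNAs. Tug1 is a processed transcript, Rpl34-ps1 a processed pseudogene and Airn an antisense gene. Of the proteins, 0 of 16 small nucleolar particle, 0 of 18 nonsense-mediated decay, 0 of 24 nuclear exosome and 0 of 31 Integrator and end-processing genes passed, with medians of -0.06, -0.06, 0.08 and 0.01. In the recovered reads 1 of 11 genes of the microRNA host list (Mir142hg) and 1 of 26 exosome genes (Exosc1) rose. In the characterised list 1 of 23 genes (Gm19585) fell, as did 1 of 17 small nucleolar particle genes (Nop56).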

How the data were processed

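RNA of sorted ILC2s was sequenced in 8 libraries (SMART-Seq HT cDNA, TruePrep libraries, per the labels' protocols). HISAT2, Cufflinks and mm10 are named, per the submitters' processing notes; the sources used here give neither versions nor the annotation. Values as deposited carry an FPKM header but act as a score: 14605 genes are below 0 in at least 1 library, and a factor of 0.863 to 1.18 repeats every 10 rows, so values were used as the authors deposited them. Whole reads were recovered from the step between values (relative tolerance 1e-06) with a whole length for 100% of 24107 genes above 0. Where all reads of a gene have a common divisor, its length is underestimated. No count model was run on the values as deposited.

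Genes at 1 FPKM or more in at least 4 libraries and none below 0 were tested with limma 3.58.1 in R 4.3.3 (trend and robust options, two-sided, Benjamini-Hochberg at 0.05), diet as the only term, and the fit was tested on simulated data. The limma-voom fit on recovered reads, the exon-length scaling and the intervals at a pseudocount of 0.1 were chosen after the data were seen. Gene models are GENCODE M21 (mm10), matched by identifier. Named members were those called, those in the lists of hosts and characterised lincRNAs, and the most expressed until 25; called genes of other lists, at most 3 each, were named by size. Members and lists were chosen with earlier results of these data known.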

Additional observations from a re-analysis of the deposited data

Results flagged for a closer look

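In 44 groups of 4 libraries (22 members in 2 diets), 2 held a library far from the others of its diet, where chance flags about 1 in 20 groups. For 5033430I15Rik it was H2 at 16.1 FPKM, below 19.9 to 20.6 FPKM in the other high-fat libraries. For EU599041 it was again H2, at 15.8 FPKM, above 1.34 to 3.72 FPKM in the others. H2 had the fewest reads, 9005363, and its part in these values was not tested.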

How the results depend on the processing

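The count of members called stayed at 0 in all 19 other settings, with 1 to 5 at an unadjusted p under 0.05. In the main fit that count was 3 (13.6%), against 18.1% of all tested genes. The sign of the difference held in every setting for 11 members and did not for 11. Over all tested genes the call count was 328 and moved to 130 without a filter on low values, 571 with the repeating factor divided out and 760 with limma-voom on recovered reads. Leaving out 1 library in turn gave 129 to 535, the lowest without H4 and the highest without H2, and leaving out N1, N2, H1 or H3 also lowered it by over 1.5 times (197, 183, 200 and 151). Quantile normalization called 226 higher and 204 lower, against 112 and 216 in the values as deposited. With the replicate block the count was 191. Same-numbered libraries correlated at -0.25 to 0.08 in their deviations, and no library correlated best with the library of its own number. Deviations sum to 0 within a diet, which holds such correlations near 0 on average. Whether equal numbers mark a shared animal or day therefore cannot be told from them, and no label says so. The cause of the moves in the count was not tested. The planned negative binomial tests were not run; limma-voom was the model fitted to recovered reads. Members with few reads (EU599041 at 6 to 35) have the widest counting error.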

Other observations

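Among lincRNAs listed below 0, those called in the recovered reads were chosen for mention after their values were seen. Neat1, the scaffold of nuclear paraspeckles, fell by 0.68 on the log2 scale (adjusted p of 0.00149 in limma-voom), from 302 to 369 RPM (recovered reads scaled to library size) on the normal diet to 211 to 258 on the high-fat diet, with no overlap. Malat1, the other abundant nuclear lincRNA, differed by -0.23 (adjusted p of 0.359). 4833407H14Rik fell by 0.83 (adjusted p of 0.00234), from 34.7 to 44.6 down to 21.1 to 28.2 RPM. Gm16702 and Gm26802 rose by 2.21 and 2.10 from levels near 1 RPM (adjusted p of 0.00741 and 0.0217).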
